A study of Mus musculus with 12 samples.

Results

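The genes described here are 83 protein-coding mouse genes whose RNA carried a peak of N4-acetylcytidine (ac4C) in both peak lists of peritoneal macrophages at 0 h of interferon-γ (IFN-γ) and in none of the 4 lists at 24 h and 48 h. A peak was given to each gene whose body held its centre. Peaks were found in at least 1 list for 1775 protein-coding genes and in both 0 h lists for 371. Of those 371 genes, 100 (27.0%) were without a peak in all 4 later lists, 153 (41.2%) in both lists of 24 h and 140 (37.7%) in both lists of 48 h, where the 24 h and 48 h counts share the 0 h lists. The 83 genes are these 100 without 17 that were set aside by name, 16 of them chaperones, splicing factors, receptors and other genes and the last the lysosomal nuclease gene Dnase2a. The other 271 genes, called retained genes below, had a peak in at least 1 later list and serve for comparison. The genes were selected on the presence and absence of listed peaks, so their absence later is not a result, and the values below are a description with no test.

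The study held 12 samples of mouse peritoneal macrophages, kept in culture with serum and antibiotics and given IFN-γ for 0, 24 or 48 h. At each time there were 2 samples of ac4C-bound RNA and 2 of total RNA. The labels name no strain, age, sex or genetic change, and do not say whether replicates were drawn from different animals or cultures. An untreated group exists for 0 h alone, so the cytokine and the elapsed time cannot be told apart.

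N4-acetylcytidine is a cytidine with an acetyl group on its base nitrogen, and NAT10 is the enzyme known to write it. The mark was first known from transfer and ribosomal RNA, where it sits at fixed positions, and it has been described in messenger RNA in connection with stability and translation. In the assay used here RNA carrying the mark is bound and pulled down, and a peak is a stretch where the pulled-down library exceeds its background. A missing peak can come with fewer marked molecules, with less of the transcript, or with a peak that fell short of the caller's threshold, and the lists alone cannot tell these apart. Nor can fewer cells of a type and less RNA per cell be told apart in bulk samples.

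The 6 lists, named list 1 and list 2 of a time in no order, contained 1151 and 946 peaks for 0 h, 725 and 646 for 24 h, then 674 and 611 for 48 h. The smallest −log10 p of a list was 2.31 to 2.33, so a peak weaker than p of about 0.005 is not listed. Input, the name used for the background library of a list, was deepest at 0 h. Its coverage relative to the deepest list was 100% and 91.4% for 0 h, 73.7% and 80.8% for 24 h, then 57.2% and 44.5% for 48 h. Of the macrophage marker genes Cd36, Cebpb, Itgam and Lyz2 had a peak in at least 1 list, while the defining markers Adgre1 and Csf1r had none. Markers of B cells (10 genes), T and NK cells (14), mast cells, eosinophils and neutrophils (15) and dendritic cells (9) had none, and of 14 markers of mesothelial cells and fibroblasts Wt1 alone had 1. A gene without a peak can still be expressed, so these counts say little about which cells were present.

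The 0 h peaks of the 83 genes lay mainly in the middle and lower part of their lists. Fold enrichment, the authors' ratio of pull-down signal to background at the summit, ran from 1.64 to 6.58 in list 1 and from 1.60 to 7.00 in list 2 for the strongest peak of each gene, with medians of 3.07 and 2.97. The retained genes had medians of 2.93 and 2.91, so by fold the groups lay close together. By p they lay apart. The median −log10 p of the 83 genes was 5.62 in list 1 and 4.84 in list 2, against 8.91 and 8.87 for the retained genes. Placed among all peaks of their own list by p, the 83 genes had a median percentile of 48.3 and 39.5, the retained genes 72.9 and 72.1, and the 59 genes with a peak in all 6 lists 85.1 and 84.4.

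**Figure D1:**
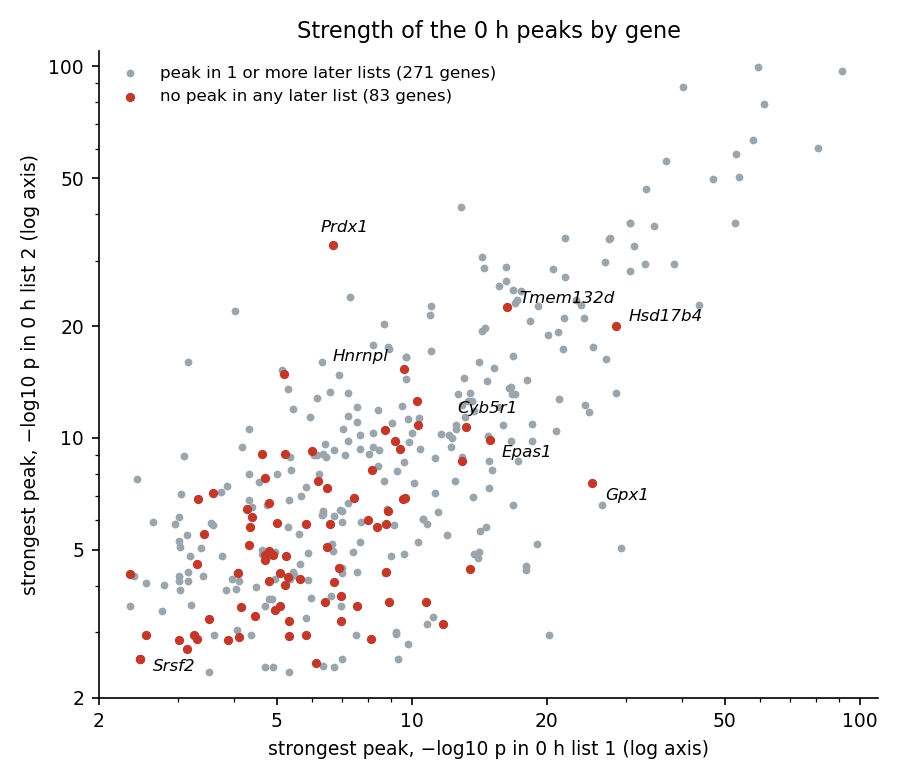
Each point is 1 gene with peaks in both 0 h lists, placed by the −log10 p of its strongest peak in list 1 (horizontal, log axis) and list 2 (vertical, log axis), with the 83 genes set against the 271 retained genes. The 83 genes fill the lower part of the range, with medians of 5.62 and 4.84 against 8.91 and 8.87, and Hsd17b4, Tmem132d and Prdx1 stand highest among them.

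The difference in p went with the number of fragments. Fragments and input coverage were recovered from the fold and p of each summit and were not measured apart from them. At like folds, a weaker p therefore comes with fewer fragments and less input. The summit of the strongest peak held a median of 45 pull-down fragments in list 1 and 35 in list 2 for the 83 genes, and 88 and 80 for the retained genes. Input coverage at the summit, in multiples of the genome background, had medians of 6.58 and 6.70 for the 83 genes and 15.9 and 16.1 for the retained genes. The 59 genes with peaks in all 6 lists stood higher still, at 29.4 and 21.4. By these recovered values the 83 genes had less input at the peak at 0 h. The part of this in their absence from the later lists was not tested. A q of 0.05 or less was reached in both 0 h lists by 26 of the 83 genes (31.3%) and by 162 of the 271 retained genes (59.8%). In 9 of the 83 genes the q was 1 in both lists: Ctcf, Dnaja2, Gatd1, Osbp, G3bp1, Scaf11, Taf12, Mettl23 and Srsf2.

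By rank, 2 intronic peaks led the group. Hsd17b4 (ENSMUSG00000024507), which encodes the multifunctional enzyme of peroxisomal β-oxidation, had a fold of 3.02 with a −log10 q of 22.9 in list 1 and of 2.60 with 14.7 in list 2. This peak lay in intron 2 at chr18:50268361-50268611 (GRCm39, start and end as deposited) and also on the pseudogene Cd63-ps, and the lists do not say which of them it came from. Tmem132d, which encodes a transmembrane protein, had a fold of 2.78 with 201 fragments in list 1 and of 2.99 with 234 fragments in list 2, in intron 4 at chr5:128032089-128032313. Both peaks were strong in both lists, and neither gene had an exonic peak in any list. Cyb5r1, a reductase of cytochrome b5, came next and was first among exonic peaks. Its 3′ UTR peak at chr1:134338901-134339423 had a fold of 5.95 with a −log10 q of 8.23 in list 1 and of 4.97 with 5.86 in list 2. Epas1, the hypoxia-inducible transcription factor HIF-2α, had a 3′ UTR peak at chr17:87138979-87139316 with a fold of 3.66 and 115 fragments in list 1 and of 3.01 and 88 fragments in list 2.

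The lower end of the group lay at the threshold of the lists. The 4 genes just inside were Scaf11, Taf12, Mettl23 and Srsf2. Scaf11, an SR-related splicing factor, had a −log10 p of 3.02 in list 1 and 2.85 in list 2. Taf12, a subunit of the general transcription factor TFIID, had 2.55 and 2.96. Mettl23, a methyltransferase gene, and Srsf2, an SR splicing factor, share 1 peak where they overlap, with a −log10 p of 2.48 and 2.55 and a fold of 1.66 and 1.84. All 4 had a q of 1 in both lists. Just outside stood 80 genes with exactly 1 later list, of which the 6 highest by rank are given. Their much stronger 0 h peaks follow from that choice. The 80 also held weak ones, such as Top1 with a −log10 p of 2.34 and 3.53 at 0 h. Ptma, which encodes prothymosin α, had a −log10 p of 40.3 and 87.9 at 0 h and of 19.8 in 48 h list 2. Pcbp2, a poly(C)-binding protein, and Map3k12, a kinase, share a peak of 30.6 and 37.8 at 0 h and of 22.7 in 48 h list 2. Npm1, nucleophosmin, had 27.0 and 29.8 at 0 h and 25.2 in 48 h list 2, and Cdkn1c, an inhibitor of cyclin-dependent kinases, had 17.2 and 23.5 at 0 h and 4.05 in the same later list. Ahnak, a giant scaffold protein, had 16.2 and 28.7 at 0 h and 6.90 in 24 h list 1. For 5 of these 6 genes the later peak was in 48 h list 2, with Pcbp2 and Map3k12 counted on the same peak. The 6 do not stand for all 80. Leaving out 48 h list 2 took the number of genes that met the rule from 83 to 116. For the other later lists it became 95 to 104.

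The peaks lay mainly at the 3′ end of the transcripts. By the authors' annotation of the peak centre, the strongest peak lay in the 3′ UTR for 56 of the 83 genes in list 1 (67.5%) and 57 in list 2 (68.7%). The retained genes had 180 (66.4%) and 168 (62.0%) of 271. Last exons outside the UTR held 14 and 11 of the 83, other exons 6 and 7, introns 5 and 6, and 5′ UTRs 2 and 2. The place was the 3′ UTR in both lists for 51 of the 83 genes (61.4%) and for 160 of the retained genes (59.0%). The 83 genes therefore had about the same places as the retained genes. The strongest peak began in the last exon and ran into the 3′ UTR in 9 of the 83 genes in list 1 and 6 in list 2, among them Gpx1, Gsr, Hnrnpl and Gadd45g.

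**Figure D2:**
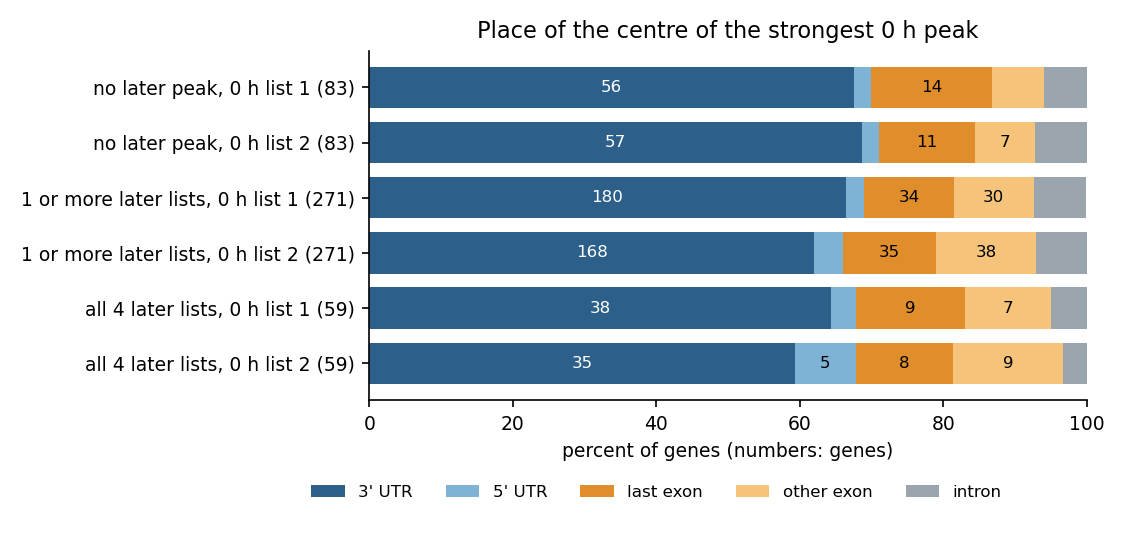
Bars give the percent of genes, with the number of genes printed, whose strongest 0 h peak was centred in each place, for the 83 genes and the 271 retained genes in both 0 h lists. The 3′ UTR holds 56 and 57 of the 83 genes and 180 and 168 of the 271, and the other places are each small.

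The exceptions to the 3′ end were few. In both lists the strongest peak was in the 5′ UTR for Dcun1d5 and Stk11, in an inner exon for Tec (exon 18) and Scaf11 (exon 11), and in an intron for Hsd17b4, Tmem132d, Txnl4a and Mospd1. It was in the last exon in both lists for 9 genes: Hnrnpl, Arhgap25, Gpx1, Gsr, Ppp1r12a, Flcn, Jarid2, Gatd1 and Mettl23. For 15 genes (18.1%, against 14.8% of retained genes) the lists placed the strongest peak differently, such as Dnmt1 in the 3′ UTR and in intron 22, and Parg in exon 3 and in the 3′ UTR. With genes assigned by exon in place of gene body, 7 genes no longer met the rule: Dnmt1, Ebna1bp2, Hsd17b4, Mospd1, Prdx1, Tmem132d and Txnl4a.

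Peaks of all lists were merged into regions where they overlapped by at least 1 base, to ask whether the pattern of a gene was also that of a single stretch of RNA. For 66 of the 83 genes (79.5%) 1 merged region held a peak of both 0 h lists and of no later list. The selection nearly fixed the part on later lists, so this count mainly describes how far the 0 h lists shared a site. A merged region with a peak of both 0 h lists, whatever the later lists held, was found for 67 of the 83 genes (80.7%), for 233 of the 271 retained genes (86.0%) and for 55 of the 59 genes with peaks in all 6 lists (93.2%). The strongest peaks of the 2 lists overlapped in 62 genes (74.7%), against 197 of the 271 retained genes (72.7%). Coa5, Pacs2, Arglu1, Hnrnph1 and Dnaja2 had a shared region although their strongest peaks did not overlap. Where strongest peaks overlapped, the summits lay a median of 28 bases apart, and at most 427. They lay within 50 bases of each other in 42 of the 62 genes (67.7%) and, for the retained genes, in 166 of 197 (84.3%), with a median of 13 bases. Position was thus less sharply repeated than among the retained genes, which also had more fragments per peak. A single peak in each 0 h list was the rule, in 62 of the 83 genes (74.7%) and in 158 of the retained genes (58.3%).

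**Figure D3:**
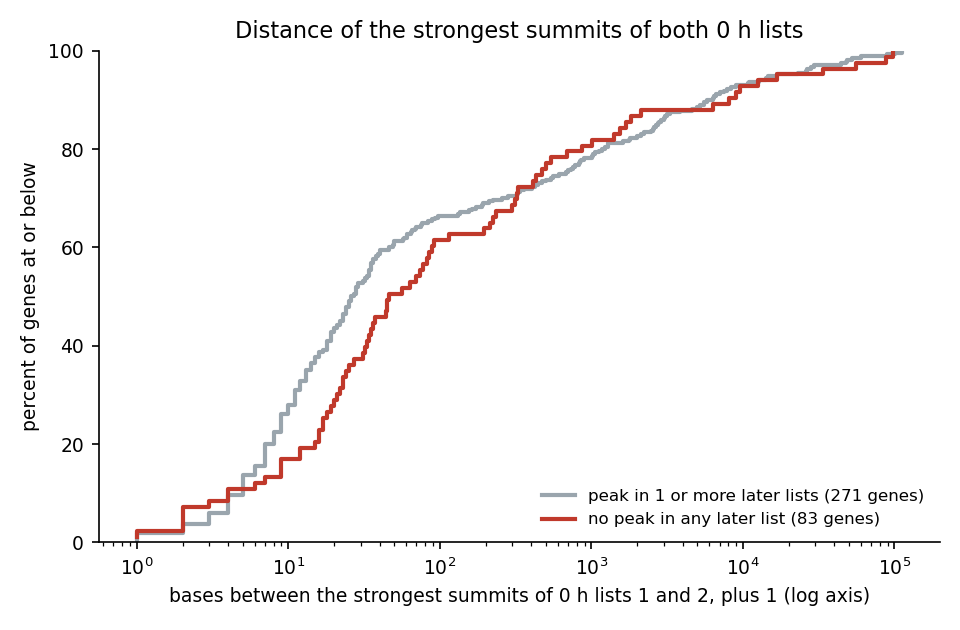
Curves give the percent of genes (vertical) whose strongest summits in the 2 lists of 0 h lie within a given number of bases plus 1 (horizontal, log axis), for the 83 genes and the 271 retained genes. Both curves climb steeply within the first 100 bases, and each ends with a minority of genes whose summits lie far apart.

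In 16 genes the peaks of the 2 lists lay in separate regions, so the gene was shared and the site was not. The closest summits of these genes were 472 to 87400 bases apart along the genome, with a median of 1687. Prdx1, a peroxiredoxin that reduces hydrogen peroxide, had a fold of 4.41 with 28 fragments in intron 2 in list 1 and of 2.10 with 706 fragments in the last exon in list 2, 9044 bases away. The peak of list 2 was the strongest by p of the whole group, and list 1 had none there. Dnmt1, the maintenance DNA methyltransferase, had a fold of 5.74 with 24 fragments in the 3′ UTR in list 1 and of 4.00 with 26 fragments in intron 22 in list 2. Ddx6, the RNA helicase of P-bodies, had 3′ UTR peaks 1823 bases apart, at a fold of 2.82 in list 1 and 2.58 in list 2. Myo10, the unconventional myosin of filopodia, had a fold of 6.58 in the 3′ UTR in list 1 and of 3.30 in exon 23 in list 2.

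The next genes by rank without a shared region were as follows. Tardbp, which encodes the RNA-binding protein TDP-43, had 3′ UTR peaks at a fold of 3.59 with 87 fragments in list 1 and of 2.43 with 29 in list 2, and its closest summits lay 691 bases apart. Lyn, a SRC-family tyrosine kinase of myeloid cells, had a fold of 2.64 in the last exon in list 1 and of 2.69 in the 3′ UTR in list 2, 472 bases away. In both genes the sites were close neighbours at the 3′ end. Alcam, the adhesion molecule CD166, had its strongest peak in exon 3 in list 1, at a fold of 5.31, and in the 3′ UTR in list 2, at 2.25. List 1 also held a weaker Alcam peak in the 3′ UTR, at a fold of 1.78, whose summit lay 675 bases from that of list 2. Strap, a factor of the SMN complex, had a fold of 2.58 in exon 8 and of 2.54 in the 3′ UTR. Eps15, an endocytic adaptor, had 3′ UTR peaks at a fold of 3.31 and 3.84, with summits 1406 bases apart. Lsm14a, a scaffold of P-bodies, had a fold of 3.26 in the 3′ UTR in list 1 and of 3.14 in exon 7 in list 2. The others were Macf1, Parg, Flcn, Cdc42se1, Zfp217 and Osbp. In the last of the 17 genes, Ccdc152, both 0 h lists shared a region that 24 h list 2 and 48 h list 2 held as well: it lies in the locus of Selenop, a selenium transport protein gene, and the later peaks were centred outside Ccdc152. Its loss as a gene is therefore not a loss of the region. In all, the strongest peak of 8 of the 83 genes also lay on another gene in at least 1 of the 0 h lists, against 35 of the 271 retained genes. Among them were Hsd17b4, Txnl4a, Capn12, B3gnt2 and Ubap2l beside the pair of Mettl23 and Srsf2, and for such peaks the gene is uncertain.

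By the functions of their products, the 83 genes fell into 10 groups, with Ccdc152 left unplaced. These groups were written by hand after the genes were known. The median fold of a group in list 1 lay between 2.49, for regulators of small GTPases, and 3.87, for protein handling. In list 2 it lay between 2.30, for membrane proteins, and 3.54, for transcription and chromatin.

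**Figure D4:**
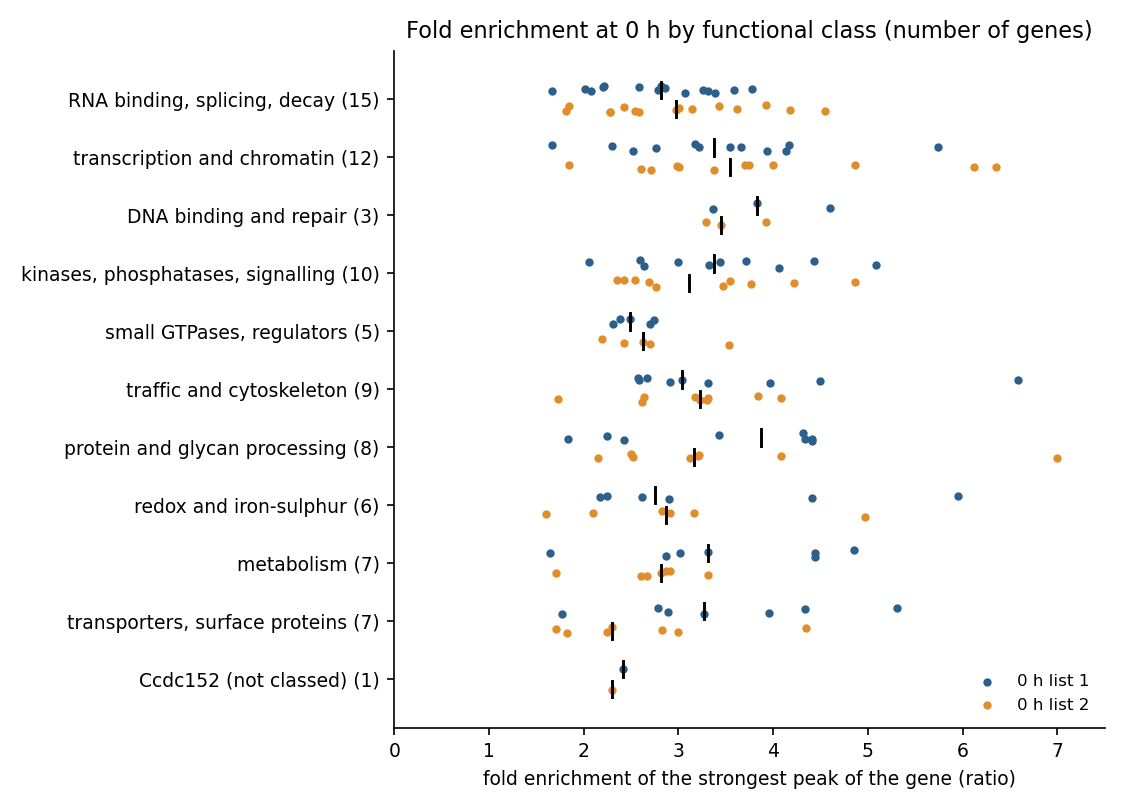
Points give the fold enrichment (horizontal, ratio) of the strongest peak of each gene in 0 h list 1 and list 2, by functional group (vertical, with its number of genes). The groups overlap over most of their range, and the highest values belong to Dcun1d5 (7.00 in list 2) and Myo10 (6.58 in list 1).

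The largest group was RNA metabolism, with 15 genes of splicing, decay and RNA granules. Their median fold was 2.82 in list 1 and 2.97 in list 2, the 3′ UTR held the strongest peak in 8 of them in each list, and 11 had a region with the pattern of the gene. Hnrnpl, a nuclear RNA-binding protein that controls alternative splicing, led with a fold of 2.78 and 106 fragments in list 1 and of 4.18 and 96 fragments in list 2, in the last exon at chr7:28521307-28521549. Mbnl1, a muscleblind regulator of alternative splicing, had a 3′ UTR peak at chr3:60535843-60536357 with folds of 2.21 and 2.28 on 165 and 144 fragments. Txnl4a, a component of the U5 small nuclear ribonucleoprotein, had folds of 3.07 and 2.97 in intron 2, on a peak that also lay on the predicted gene Gm16286. These 3 peaks had a q of 0.05 or less in both lists, and their fragment counts were close between lists. Upf1, the helicase of nonsense-mediated decay, G3bp1, a core protein of stress granules, and Ubap2l, a stress granule factor, had 3′ UTR peaks. The remaining genes were the splicing factors Arglu1, Hnrnph1, Scaf11 and Srsf2, Ebna1bp2 of ribosomal RNA processing, and Ddx6, Tardbp, Strap and Lsm14a as given above. P-bodies and stress granules, cytoplasmic sites of stored and decaying messenger RNA, were represented by Ddx6, Lsm14a, G3bp1 and Ubap2l.

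Transcription factors and chromatin proteins made up 12 genes, with median folds of 3.38 in list 1 and 3.54 in list 2. The strongest peak lay in the 3′ UTR in 10 of them in list 1 and 9 in list 2, and 10 had a region with the pattern of the gene. After Epas1, the highest was Egr2, a zinc finger factor of macrophage differentiation and alternative activation, with a fold of 3.93 on 53 fragments in list 1 and of 2.60 on 70 fragments in list 2 at chr10:67377463-67377922. These Egr2 summits lay 223 bases apart, and near that of list 2, list 1 had a fold of 2.54. Dnmt1, which copies DNA methylation after replication, came next, and the group also held Tet3, which oxidises methylated cytosine. Tet3 had a 3′ UTR peak with a fold of 4.17 in list 1 and of 6.35 in list 2, on 19 and 25 fragments. Yeats4, a reader of acetylated histones, had folds of 3.54 and 6.12 on 24 fragments in each list. Both stood higher in list 2, on few fragments. The others were the factors Klf13, Usf1 and Zfp217, the insulator protein gene Ctcf, the Polycomb cofactor gene Jarid2, and Taf12 and Mettl23 at the lower end.

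Genome maintenance was represented by 3 genes. Rpa1, the large subunit of the single-stranded DNA binding complex, had a 3′ UTR peak at chr11:75191363-75191945 with a fold of 4.60 on 46 fragments in list 1 and of 3.92 on 35 in list 2. These summits lay 325 bases apart. Near the first, list 2 had a fold of 2.48, and near the second, list 1 had 3.30. Gadd45g, of the growth arrest and DNA damage response, had folds of 3.36 and 3.29. Parg, which removes poly(ADP-ribose), had folds of 3.83 and 3.45 at separate sites.

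Signalling proteins made up 10 genes, with median folds of 3.38 and 3.12, and 8 had a region with the pattern of the gene. Mapk1ip1l, named for its likeness to a MAP kinase interacting protein, had the first rank among them, with a 3′ UTR peak at chr14:47557321-47557567 and folds of 3.32 on 89 fragments and 3.47 on 80. The catalytic and the targeting subunit of a protein phosphatase 1 complex that acts on myosin were both present. Ppp1r12a, the targeting subunit, had a last-exon peak at chr10:108114652-108114935 with folds of 4.06 on 57 fragments and 4.22 on 52. Ppp1cb, the catalytic subunit, had a 3′ UTR peak at chr5:32648756-32649672 with folds of 2.99 on 95 fragments and 2.43 on 86. All 3 were similar in both lists. Stk11, singled out for its place after its values were seen, encodes the kinase LKB1 that activates AMP-activated kinase and had a 5′ UTR peak with folds of 4.43 and 4.86 on 18 and 16 fragments. The others were the tyrosine kinase genes Tec and Lyn, the tyrosine phosphatase gene Ptpn12, Kctd12 of GABA-B receptor complexes, Flcn, which takes part in amino acid sensing at the lysosome, and the growth factor gene Igf1.

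Regulators and members of the small GTPases were 5 genes, 4 of them with the strongest peak in the 3′ UTR in each list. Arhgap25, an activating protein for RAC in phagocytes, had a last-exon peak at chr6:87436430-87437111 with a fold of 2.74 on 117 fragments in list 1 and of 3.53 on 96 in list 2. Rab21, an endosomal GTPase, had folds of 2.70 and 2.19, and Arhgap19, a GTPase-activating protein gene, of 2.38 and 2.70. Cdc42se1, an effector of CDC42, and Tbc1d13, an activating protein for RAB, completed the group.

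Membrane traffic and the cytoskeleton held 9 genes, of which 5 had a region with the pattern of the gene. Tm9sf3, a Golgi membrane protein gene, had a 3′ UTR peak at chr19:41202383-41202623 with folds of 2.57 on 80 fragments and 2.64 on 77. Pacs2, a sorting protein of the endoplasmic reticulum and mitochondria, had 3′ UTR peaks with folds of 2.91 on 64 fragments and 4.08 on 24, and the strongest peak of one list did not overlap that of the other. Myo10 followed. The others were Eps15, Macf1, which links microtubules and actin, Pacsin2, which bends membranes, Mospd1, Cnih1 of cargo export from the endoplasmic reticulum, and Osbp, which carries sterol at membrane contacts.

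Protein folding, modification and turnover held 8 genes, and all 8 had a region with the pattern of the gene. Dcun1d5, of the neddylation of cullin ubiquitin ligases, had a 5′ UTR peak at chr9:7184580-7184816 with a fold of 4.31 on 47 fragments in list 1 and of 7.00 on 24 fragments in list 2. Its input in list 2 was at the genome background (1.00 times), so the high fold there rests on few fragments over no local input. Capn12, a calpain protease gene, had a 3′ UTR peak with folds of 1.83 on 136 fragments and 3.12 on 138, and that peak also lay on Actn4, a gene set aside by name. Emc3, a subunit of the membrane insertase of the endoplasmic reticulum, had a 3′ UTR peak at chr6:113491959-113492205 with folds of 4.41 on 44 fragments and 3.21 on 39. B3gnt2, which builds poly-N-acetyllactosamine chains, had folds of 4.41 and 2.52 on a peak that also lay on Commd1b. The others were Xpnpep1, an aminopeptidase gene, Man1c1, a Golgi mannosidase gene, Ubqln1, a ubiquitin shuttle gene, and Dnaja2, a co-chaperone gene of HSP70.

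Redox and iron-sulphur proteins were 6 genes, with the highest median −log10 p of the 10 groups in list 1 (10.2) and in list 2 (8.95). After Cyb5r1 came Gpx1, the glutathione peroxidase that removes hydrogen peroxide, with a fold of 2.25 on 486 fragments in list 1 and of 1.60 on 326 in list 2, in the last exon at chr9:108217081-108217522. Its input was 115 and 127 times the genome background, and its fold in list 2 was the lowest of the 83 genes in that list. Gsr, the glutathione reductase that restores the substrate of Gpx1, had a last-exon peak at chr8:34187284-34188035 with folds of 2.90 on 144 fragments and 2.83 on 87. These are different summits of the peak, 409 bases apart. Near the first, list 2 had a fold of 2.17, and near the second, list 1 had 2.58. Ciao2a, of cytosolic iron-sulphur cluster assembly, had folds of 2.17 and 3.16, and Coa5, of cytochrome c oxidase assembly, of 2.61 and 2.91. With Prdx1, given above, 3 enzymes of peroxide and glutathione handling were among the 83 genes. Other redox genes were retained, among them Mgst1, Msrb1 and the catalase gene Cat. Cat had a −log10 p of 53.8 and 50.3 at 0 h and a peak in all 4 later lists. Redox genes were not counted as a list beside all genes, so no share can be given for them. Gpx1 in list 1 and Prdx1 in list 2 had the highest fragment counts of the 83 genes.

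Metabolic enzymes were 7 genes, and all 7 had a region with the pattern of the gene. Hsd17b4 was the first by rank. Sgms1, which makes sphingomyelin, had a 3′ UTR peak with a fold of 4.85 on 31 fragments in list 1 and of 2.82 on 22 in list 2. Papss2, which makes the sulphate donor for sulphation, had folds of 3.31 and 2.91. Kdsr, an early reductase of sphingolipid synthesis, Acss1, the mitochondrial acetyl-CoA synthetase, and Cmpk1, a kinase of pyrimidine nucleotides, had 3′ UTR peaks, and Gatd1 a last-exon peak.

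Membrane proteins outside traffic were 7 genes, 6 of them with a region that had the pattern of the gene. After Tmem132d came Slc39a1, a zinc importer of the plasma membrane, with a 3′ UTR peak at chr3:90159649-90159895, a fold of 2.89 on 150 fragments in list 1 and of 1.82 on 103 in list 2. Wbp1l, a protein with motifs for WW domains, had a 3′ UTR peak at chr19:46645381-46645781 with folds of 3.96 on 34 fragments and 4.35 on 35. The first had the larger fold in list 1, and the second was alike in both. The others were Alcam, Atp2b1, a calcium pump of the plasma membrane, Tmem222, and Slc6a6, the taurine transporter.

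Pathway lists that also hold retained genes were counted beside the 27.0% (100 of 371) of all genes with peaks in both 0 h lists. The lists are partial and written by hand, so each count covers listed genes alone and is not the share of a whole function. Members of the 83 with such functions that no list of that function held include the transcription and chromatin genes Yeats4, Zfp217, Jarid2, Taf12 and Mettl23, the kinase genes Stk11 and Tec, the RNA-binding protein genes Hnrnpl and Lsm14a, Kdsr and Osbp of lipid and sterol handling, Eps15 of endocytosis and the mitochondrial enzyme gene Acss1. Of 18 listed transcription factors and chromatin regulators with peaks in both 0 h lists, 7 were among the 83 (Ctcf, Dnmt1, Egr2, Epas1, Klf13, Tet3 and Usf1), and 11 were retained, among them Cebpb, Stat6 and Zeb2. Of the listed factors of RNA decay, export and binding 6 of 16 were among them (Ddx6, G3bp1, Mbnl1, Strap, Tardbp and Upf1), and 10 retained, such as Ptbp1, Qk and Syncrip. Of the listed kinases and phosphatases 4 of 17 were among them (Lyn, Ppp1cb, Ppp1r12a and Ptpn12). Of the listed lipid and sterol genes it was 2 of 13, Hsd17b4 and Sgms1, with the lipid storage gene Plin2 and the lipase gene Lpl retained. None of the 8 listed genes of vesicle coats, SNAREs and sorting nexins and none of the 4 listed mitochondrial genes outside oxidative phosphorylation was among the 83. Of 5 RAB genes Rab21 was. Of 9 listed genes of ubiquitin transfer only Kctd12 was. Kctd12 is placed above with GABA-B receptor complexes, so its place on that list is doubtful. Of 11 listed innate immune receptors and adaptors 3 had no later peak, Cd44, Il10rb and Itgam, all set aside by name, and 8 were retained, among them Ifngr2, Cd274 and Nfkbia.

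The deposited gene ontology terms given here were picked after their counts were seen. The nucleus was named for 40 of the 83 genes (48.2%) and 142 of the 271 retained genes (52.4%). Nucleoplasm was named for 26 (31.3%) and 64 (23.6%), nucleolus for 10 (12%) and 17 (6.27%), and mitochondrion for 13 (15.7%) and 29 (10.7%). Plasma membrane was named for 18 (21.7%) and 83 (30.6%), cell surface for 0 and 22 (8.12%), and RNA binding for 10 (12%) and 37 (13.7%).

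The later lists had less input, so the 0 h peaks were rescaled to each of them. Fragments and input at each 0 h summit were multiplied by the ratio of input coverage and p was recomputed. At the input coverage of 24 h list 1 and list 2, 74 and 77 of the 83 genes still had p of 0.005 or less in both 0 h lists. At that of 48 h list 1 and list 2, 63 and 53 did. Of the 271 retained genes 258, 260, 232 and 214 did. Among the genes that did not keep that p at the coverage of 48 h list 2 were Tardbp, Upf1, G3bp1, Lyn, Igf1, Ctcf and Kdsr. This scaling lowered pull-down fragments by the input ratio, whereas the pull-down coverage of the lists, relative to the deepest, was 91.5% and 78.0% for 0 h, 100% and 98.0% for 24 h, then 78.0% and 68.5% for 48 h. The counts therefore describe the strength of the 0 h peaks, and the part of depth in the missing later peaks was not tested.

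**Figure D5:**
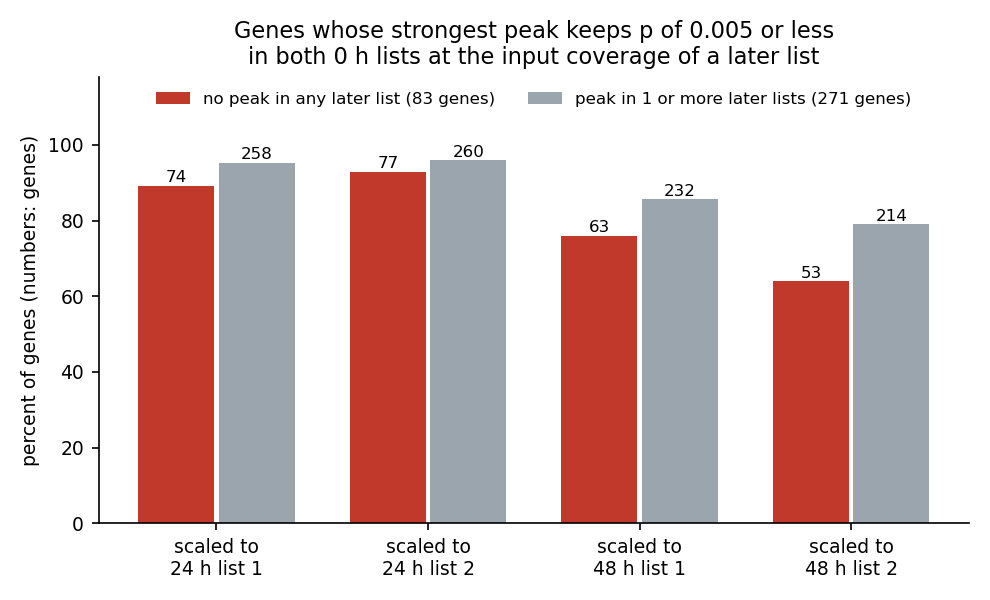
Bars give the percent of genes, with numbers printed, whose strongest peaks in both 0 h lists keep p of 0.005 or less after scaling to the input coverage of each later list, for the 83 genes and the 271 retained genes. The 83 genes go from 77 at 24 h list 2 to 53 at 48 h list 2.

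A smaller set met the rule under stricter readings of the same lists. These readings only remove peaks or genes, and the 83 genes had no later peak by selection. The readings therefore describe the 0 h peaks and do not test the absence later. With q of 0.05 or less required of every peak, 26 of the 83 genes still met the rule, as counted above for both 0 h lists. With the 611 peaks of smallest p in each list, 29 did, and at matched input coverage 53. Together with assignment by exon and without peaks shared with another gene, 20 genes met it under all 5 of these readings. These were Arhgap25, Ciao2a, Coa5, Cyb5r1, Dcun1d5, Ddx6, Egr2, Emc3, Epas1, Gpx1, Gsr, Hnrnpl, Mbnl1, Pacs2, Ppp1cb, Ppp1r12a, Rpa1, Tm9sf3, Wbp1l and Xpnpep1. Of these 20, Ddx6 alone had its 0 h peaks in separate regions. Requiring q of 1e-05 or less left 6 of the 83: Arhgap25, Cyb5r1, Epas1, Hsd17b4, Mapk1ip1l and Tmem132d.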

How the data were processed

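The deposited tables hold, per the file headers, 1 row for each peak summit and overlapped gene, with the fold enrichment (a ratio) and p-value and q-value as −log10, all the authors' values beside a peak score that the authors derived from p and that was not used for ranking, used to describe, rank and filter peaks within a list. The submitters' processing notes name BWA 0.7.12, MACS2 2.1.0 and GRCm39. The sources used here give neither roles and settings nor the control library of each list. Spliced reads are not aligned across junctions by BWA. The lists name an hour and not a sample, and total RNA was not analysed here. Starts are printed as deposited, with an unstated base of 0 or 1.

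The strongest summit gave a peak its values and the authors' annotation of the peak centre its place, with the 3′ UTR first where several applied. Gene types came from a RefSeq table (GRCm38.p6, names only), joined on the symbol; 94.4% of 2095 symbols matched. Fragments and input coverage were recovered from fold and p, with the lowest input coverage as the genome background. The fragment number of best match was taken (100% of summits within 0.005 of −log10 p), so a close match follows in part from the search. The recovery was tested on simulated data, but not at counts as high as those of Gpx1 and Prdx1. Python 3.11.15, pandas 2.3.3, SciPy 1.17.1 and matplotlib 3.10.9 were used.

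The genes and lists were chosen with earlier results of these data known, so nothing was tested. The rank of a gene was the average of its 2 percentiles of −log10 p at 0 h. Values are given for the 30 highest, the 3 highest of each functional group, the 4 lowest and the 10 highest without a region of their pattern, beside the 6 highest genes with exactly 1 later list. Alternatives were q, fold, list length, input coverage, gene assignment, shared peaks, merging, annotation order and leaving out each list.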

Additional observations from a re-analysis of the deposited data

How the results depend on the processing

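Without the genes set aside by name and lysosomal enzyme genes, 352 genes had peaks in both 0 h lists, and 83 of them met the rule. Of these 83, 66 had a merged region with the pattern of the gene, and 71.1% had the stronger of their 0 h peaks in the 3′ UTR. At a q of 1e-05 or less these values were 36 of 96 genes, 34 and 66.7%. At a fold enrichment of 4 or more they were 18 of 37, 16 and 77.8%. At equal list length (611 peaks a list) they were 30 of 209, 26 and 60.0%. As a share of genes with peaks in both 0 h lists, the number was higher at this q and fold and lower at equal list length. Stricter settings drop later peaks too, so genes outside the 83 enter: of the 83 themselves 6, 8 and 29 still met the rule. At a q of 0.05 or less and at matched input coverage the numbers stayed within 1.5 times (65 of 187 and 58 of 267 genes, 55 and 44 with a region). The 3′ UTR share was 66.2% and 63.8%. With genes assigned by exon it was 74.7%, and over all 0 h peaks of the genes 65.8%. Leaving out 1 list gave 95 to 325 genes, 75 to 323 with a region and 62.4% to 73.3% in the 3′ UTR. Without 0 h list 1 it was 282 of 676 genes and without 0 h list 2 it was 325 of 802. A peak in the remaining 0 h list then sufficed, so this rise follows from the looser rule. Leaving out a later list, which can only raise the number too, gave 95 to 116 of the 352. Assignment by any overlap, leaving out shared peaks and the merging rules kept all counts within 1.5 times. An alternative chosen after seeing the data, leaving out genes with a later peak on a 0 h region, gave 82.

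No paired analysis was possible because the lists name no sample, their numbers carry no pairing, and no value comes from a test. There were 2 lists a time, and the input coverage of the later lists was lower; its part in the missing peaks was not tested. Peaks near the threshold are uncertain on both sides.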
